A study of Homo sapiens with 15 samples.

Results

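The tumour cells compared here were human A549 cells grown as xenografts in mice restrained before the cells were transplanted (stress, 5 tumours) and in mice never restrained (no stress, 5 tumours). A549 is an established human lung adenocarcinoma line. The tumours of all groups grew from 5000000 A549 cells placed under the skin of BALB/c nude mice, animals without mature T cells, and bulk RNA of each whole xenograft was sequenced. The labels give restraint as 7 days before transplantation for the stress group and as 12 days after it for the 5 post-stress tumours, and do not say whether these figures are a duration or a starting day. They also do not say that each tumour came from its own mouse.

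The comparison covers 10 of the 15 tumours of the series and the human genes of the count table, of which 15435 of 60649 had counts enough to be tested. Levels are CPM, counts scaled to human library totals of 1000000 after TMM scaling. A gene was called higher or lower where the edgeR quasi-likelihood test gave a Benjamini-Hochberg adjusted p under 0.05. A fold is the stress level divided by the no-stress level and is followed by its log2 value ± SE and the adjusted p, with n = 5 tumours a group throughout. Values of single tumours are listed in the order of the replicate numbers 1 to 5, which name the tumours (no-stress 1 to 5, stress 1 to 5) and do not pair them.

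Restraint is a standard model of chronic psychological stress in rodents. It raises glucocorticoids and catecholamines in the blood and tends to lower food intake. Cells answer hormones and growth factors through receptors, and FOXO factors become active when insulin signalling is low. In the separate oxygen-sensing pathway, prolyl hydroxylases and VHL destroy HIF factors while oxygen is present. Whether any of these pathways carried an effect of restraint to the tumour cells was not tested. Entry into the cell cycle depends on E2F factors, which switch on replication genes, and on release from the repressive DREAM complex, which holds mitotic genes down in resting cells.

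Human counts ran from 13242819 to 15892705 in the 10 tumours. Mouse counts took 22.6% ± 6.65 (SD, n = 5) of a library without stress and 21.0% ± 2.34 (SD, n = 5) with stress. The tumours carried the line's identity: the summed level of 12 genes expected in A549 was 20707 to 26763 CPM without stress and 19574 to 23030 CPM with stress. KRT8 (adjusted p = 0.44) and KRT18 (adjusted p = 0.174), epithelial keratins, did not pass the test. CDKN2A, which is deleted in A549, stayed under 1 CPM in 9 of 10 tumours. The summed human level of 18 blood, vessel and stroma genes was 192 to 460 CPM without stress and 186 to 316 CPM with stress, with 9 of the 18, among them PTPRC, under 1 CPM in all 10 tumours. Others were present on human rows. RGS5 ran from 26.1 to 342 CPM without stress and 62.7 to 171 CPM with stress. COL1A1 ran from 85.7 to 190 and 93.8 to 144 CPM, and DCN from 1.05 to 17.8 and 7.84 to 48.3 CPM. Mouse reads from conserved sequence can be counted on human genes, and in bulk tumours fewer cells of a type cannot be told apart from less RNA per cell. Along the leading principal component (30.7% of the variance) the no-stress tumours lay at -48.6 to -6.40 and the stress tumours at 3.24 to 38.0. No-stress 1 stood at the far end, and stress 4 lay nearest to the no-stress group.

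With stress 807 genes were higher (5.23% of those tested) and 806 were lower (5.22%), together 10.5%. The higher genes moved further: 211 of them at least doubled, while 32 of the lower genes at least halved. All 5 stress tumours lay above all 5 no-stress tumours for 632 genes (4.09%) and below them for 725 (4.7%). The count of 1613 calls rested partly on single tumours. It was 661 without no-stress 1, 864 without no-stress 3, 782 without stress 1, 1043 without stress 3 and 1072 without stress 5. Every list count below is to be read beside the 5.23% higher and 5.22% lower of all tested genes. Families above that share on the higher side included growth factor and FOXO genes, oxygen sensing, early response factors, clock genes, interferon and NF-kB genes. Metallothioneins and collagen-modifying enzymes were among the others above it. On the lower side, families above the share included replication, mitosis, sterol and RNA supply genes and those of the mitochondrial genome.

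**Figure D1:**
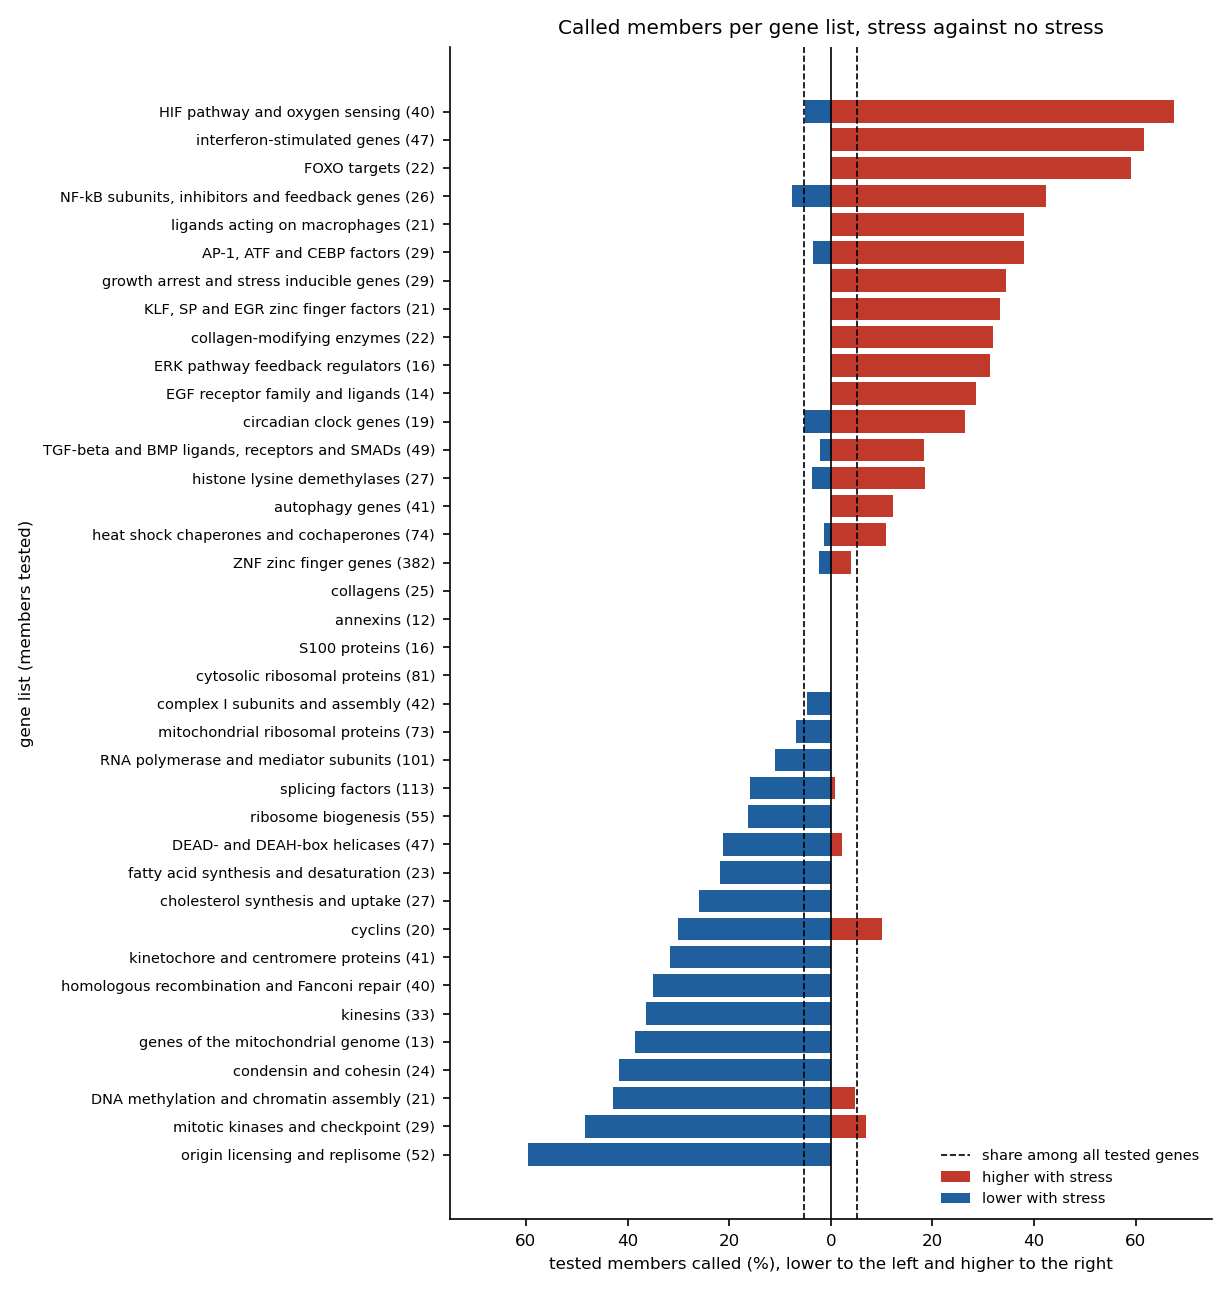
Share of the tested members of a selection of gene lists called lower (bars to the left) or higher (bars to the right) with stress; numbers in brackets are the tested members and dashed lines mark the shares over all tested genes, 5.22% lower and 5.23% higher. HIF pathway genes (67.5% higher) and origin licensing genes (59.6% lower) stand at the ends of those drawn, while cytosolic ribosomal proteins, S100 proteins, annexins and collagens have no called member.

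The 12 genes with the smallest p included 9 higher and 3 lower genes, and in all 12 the groups did not overlap. Choosing genes by smallest p itself favours such a gap. ZMYND8, a chromatin reader that binds acetylated histones, stood at 40.5, 39.8, 35.4, 39.8 and 44.1 without stress and 70.2, 70.6, 77.4, 64.6 and 71.3 CPM with stress (chromosome 20, 47209214 to 47356889 of hg38). Every stress tumour lay above every no-stress tumour by a wide gap (1.77-fold, log2 0.83 ± 0.08, adjusted p = 4.13e-05). ENO2, the neuronal isoform of the glycolytic enzyme enolase, stood at 50.4, 63.7, 61.3, 65.4 and 77.6 without stress and 189.9, 148, 154, 145 and 178 CPM with stress. It was high in all stress tumours (2.56-fold, log2 1.36 ± 0.13, adjusted p = 5.81e-05). ARRDC3, an arrestin-like adaptor that steers receptors such as the beta-adrenergic receptor to endosomes, stood at 92.2, 89.8, 89.4, 108 and 139 without stress and 221, 236, 329.6, 214 and 294 CPM with stress (2.50-fold, log2 1.32 ± 0.14, adjusted p = 1.98e-04). CREBRF, a regulator of the factor CREB3, was 1.95-fold, adjusted p = 3.59e-04. INSIG2, which retains the sterol sensor SCAP in the endoplasmic reticulum, stood at 27.7, 31.4, 33.2, 39.9 and 32.9 without stress and 66.3, 66.9, 64.4, 62.1 and 57.3 CPM with stress (1.92-fold, log2 0.94 ± 0.12, adjusted p = 4.22e-04). In neither gene did a no-stress tumour reach the lowest stress tumour. PIM1, a serine/threonine kinase induced by cytokine signalling, was 2.30-fold, adjusted p = 5.66e-04. BRI3BP, which binds the membrane protein BRI3, went the other way, at 70.3, 57.4, 60.5, 61.2 and 48.3 without stress and 25.7, 34.8, 34.1, 41.2 and 29.4 CPM with stress (0.555-fold, log2 -0.85 ± 0.11, adjusted p = 7.95e-04). Of the 12, IGFBP1, NR1D1, BMAL1 and CERK are described with their families.

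**Figure D2:**
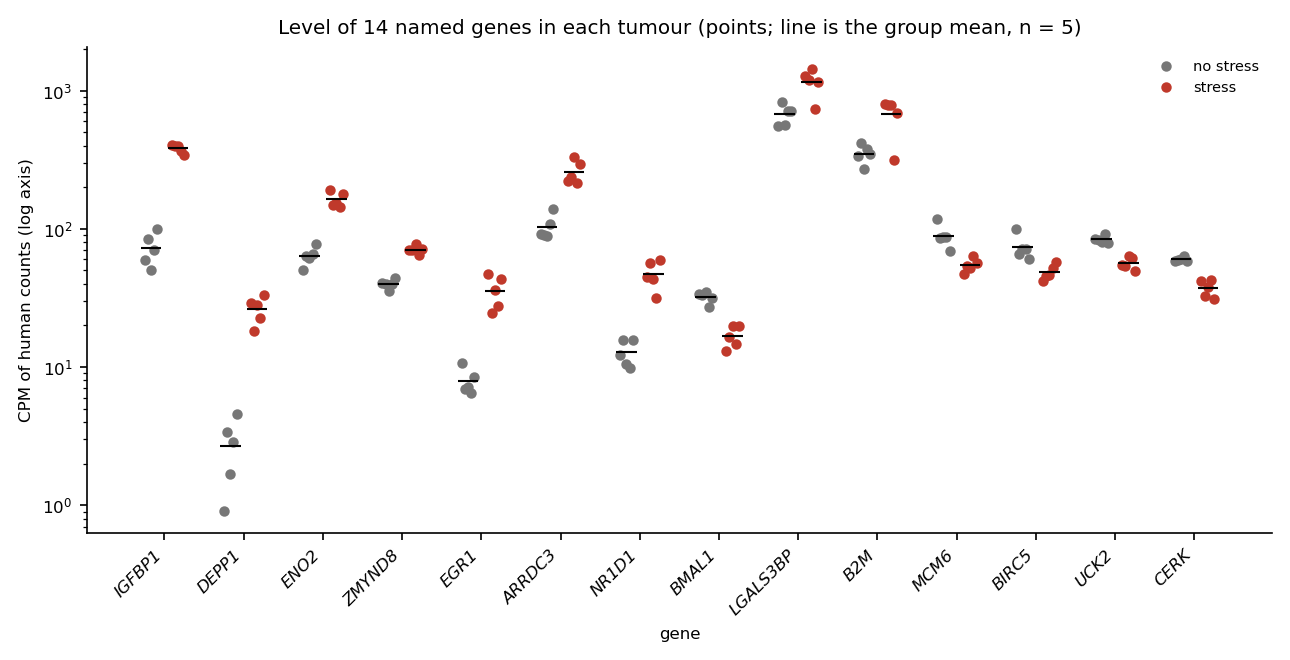
Level of 14 genes in each of the 10 tumours, in CPM on a log axis; grey points are no-stress tumours, red points stress tumours, and lines group means (n = 5). The groups separate fully for IGFBP1, DEPP1, ENO2, ZMYND8, EGR1, ARRDC3, NR1D1, BMAL1, MCM6, BIRC5, UCK2 and CERK, while LGALS3BP and B2M have 1 low stress tumour, number 4.

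Calls among FOXO targets, genes that answer low insulin and growth factor signalling, were all on the higher side. Of 24 FOXO targets 22 were tested, 13 were higher (59.1%, beside 5.23% of all tested genes), none was lower, and the median log2 difference was 0.66, beside -0.01 over all tested genes. The list's mean log2 level, taken relative to the no-stress mean, was -0.19, 0.10, -0.35, 0.09 and 0.35 without stress and 0.78, 0.84, 0.91, 0.81 and 0.86 with stress. The stress tumours were thus closer to one another than the no-stress tumours were. DEPP1, a FOXO-induced regulator of autophagy and peroxisomes, stood at 0.913, 3.39, 1.67, 2.87 and 4.54 without stress and 28.9, 18.1, 27.9, 22.6 and 33.2 CPM with stress (chromosome 10, 44970981 to 44978810 of hg38). It was low in every no-stress tumour and high in every stress tumour (9.80-fold, log2 3.29 ± 0.44, adjusted p = 0.00168). The 250 bases before its start are shown because they hold a FOXO motif, TGTTTAC, found here as its reverse complement and set in capitals (RefSeq GRCh38.p14, chr10:44978810-44979059, minus strand).
DEPP1: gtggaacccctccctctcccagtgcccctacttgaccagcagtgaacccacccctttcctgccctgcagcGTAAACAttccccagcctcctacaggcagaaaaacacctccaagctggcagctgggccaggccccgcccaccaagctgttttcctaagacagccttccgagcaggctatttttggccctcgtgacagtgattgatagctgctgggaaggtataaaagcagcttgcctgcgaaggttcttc
That motif, searched on both strands, occurs in 1 of 11 FOXO target promoters (9.1%), that of DEPP1 itself, in 1.9% of the 7218 promoters examined, in 4.6% of those of higher genes and in 1.8% of those of lower genes. A match of letters is a description, not a site or a cause.

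The insulin-like growth factor system, a family of ligands, receptors and secreted binding proteins, had 5 higher and 1 lower of 14 tested members (median 0.25). IGFBP1, a binding protein that insulin represses in liver, stood at 59.4, 85.1, 50.03, 70.5 and 100.2 without stress and 405, 398, 397, 367 and 339 CPM with stress. Its stress tumours lay close together and far above the no-stress tumours (5.23-fold, log2 2.39 ± 0.22, adjusted p = 1.01e-04). IGFBP5, another binding protein, stood at 0.0702, 0.532, 0.248, 2.36 and 2.23 without stress and 19.6, 13.04, 21.7, 8.38 and 5.50 CPM with stress. It was near 0 in no-stress 1 and 3 and clearly present in every stress tumour (12.7-fold, log2 3.66 ± 0.73, adjusted p = 0.00919). IGFBP4 was 1.47-fold, adjusted p = 0.00700. The insulin receptor substrate IRS2 was 1.55-fold, adjusted p = 0.0269, a call lost when no-stress 1 or 3 or stress 1 or 2 was left out. Of the IGF2 mRNA-binding proteins, IGF2BP2 was 1.93-fold, adjusted p = 0.0102, and IGF2BP1 was 0.796-fold, adjusted p = 0.0302, a call lost when no-stress 1, 2 or 3 or stress 1, 2 or 5 was left out.

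Growth arrest and stress-inducible genes had 10 higher and no lower of 29 tested members (median 0.42). KLF6, a zinc finger factor that restrains growth, stood at 76.7, 154, 105, 121 and 141 without stress and 346, 254, 253, 211 and 352 CPM with stress (2.37-fold, log2 1.25 ± 0.18, adjusted p = 0.00168). CDKN1B, the CDK inhibitor p27 and a FOXO target, stood at 64.8, 84.3, 72.8, 90.6 and 93.03 without stress and 125, 136, 120.1, 109 and 115 CPM with stress, with the groups apart (1.49-fold, log2 0.58 ± 0.10, adjusted p = 0.00287). CCNG2, a cyclin linked to cell cycle arrest that FOXO factors induce, was 1.67-fold, adjusted p = 0.0148. The call of CCNG2 was lost without both no-stress 1 and 5. The mTOR and AMPK pathway was mixed (median 0.01). It had 5 higher (14.3%) and 2 lower (5.71%, beside 5.22% of all tested genes) of 35 tested members. Without 1 tumour its higher count was 2 without no-stress 1 or stress 5, 3 without no-stress 3 or stress 1 or 2 and 2 without both no-stress 1 and 5. RRAGC, a GTPase that recruits mTOR complexes to lysosomes, was 1.54-fold, adjusted p = 0.00498, and RICTOR, a defining subunit of mTOR complex 2, was 1.53-fold, adjusted p = 0.00534. AKT1S1, an inhibitory subunit of complex 1, was 0.753-fold, adjusted p = 0.00579. MTOR itself, the kinase, was 0.833-fold, adjusted p = 0.0335, a call lost when no-stress 1, 2, 3 or 5 or stress 1, 2, 3 or 5 was left out.

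Calls among oxygen-sensing genes were mostly on the higher side. Of 41 members of the HIF pathway 40 were tested, 27 were higher and 2 were lower (median 0.65). For 25 of the 40, all 5 stress tumours lay above all 5 no-stress tumours, beside 4.09% of all tested genes. The list's mean log2 level relative to no stress was -0.20, -0.05, -0.05, 0.11 and 0.19 without stress and 0.65, 0.49, 0.77, 0.67 and 0.63 with stress. The tumours of the groups did not overlap, and no single tumour moved the count by more than 1.5 times; without both no-stress 1 and 5 it was 17. PPFIA4, a liprin scaffold protein, stood at 3.79, 4.19, 4.77, 8.95 and 6.62 without stress and 21.98, 11.99, 19.3, 16.5 and 23.2 CPM with stress (chromosome 1, 203026498 to 203078740 of hg38). It was low in every no-stress tumour (3.29-fold, log2 1.72 ± 0.24, adjusted p = 0.00128). The stretch before its start is shown because it holds the core of the hypoxia response element, ACGTG, on both strands at overlapping places, in capitals (chr1:203026241-203026490, plus strand).
PPFIA4: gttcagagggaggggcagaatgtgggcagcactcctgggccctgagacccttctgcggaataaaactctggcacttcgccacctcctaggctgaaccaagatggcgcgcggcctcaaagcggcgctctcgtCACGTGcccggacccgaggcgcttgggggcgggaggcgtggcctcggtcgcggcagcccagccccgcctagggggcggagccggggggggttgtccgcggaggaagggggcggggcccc
The core was found in 13 of 23 HIF pathway promoters (56.5%), in 23.8% of all, in 28.8% of those of higher genes and in 23.3% of those of lower genes. Every E-box CACGTG contains it.

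BNIP3L, a receptor for the removal of mitochondria by autophagy, stood at 108, 128, 131, 152 and 144 without stress and 285, 229.5, 235, 207 and 213 CPM with stress (1.76-fold, log2 0.82 ± 0.11, adjusted p = 0.00103). BNIP3, its relative, stood at 80.1, 111, 117, 173 and 139.8 without stress and 274, 234, 236, 219 and 204 CPM with stress (1.88-fold, log2 0.91 ± 0.18, adjusted p = 0.00736). Both were high in all stress tumours. The lower members were HIF1A and VHL. HIF1A, the oxygen-regulated subunit whose protein level is set mainly by degradation, stood at 722, 557, 658, 606 and 581 without stress and 502, 506, 489, 447 and 432 CPM with stress. Its groups did not overlap (0.761-fold, log2 -0.39 ± 0.09, adjusted p = 0.0101), and its call was lost without both no-stress 1 and 5. VHL, the ubiquitin ligase subunit that marks HIF proteins for destruction, stood at 56.5, 54.7, 58.6, 58.4 and 61.8 without stress and 50.1, 42.5, 45.2, 51.8 and 46.3 CPM with stress (0.814-fold, log2 -0.30 ± 0.07, adjusted p = 0.0192). Its call was lost when stress 2 or 3 was left out.

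Enzymes and stores that are known to lie downstream of oxygen moved in part. Histone lysine demethylases, several of which need oxygen, had 5 higher and 1 lower of 27 tested members with a median of -0.03. JMJD1C, a Jumonji-domain protein, was 1.44-fold, adjusted p = 0.00355, and KDM7A was 1.70-fold, adjusted p = 0.00585. RIOX1, a histone demethylase and ribosomal oxygenase, stood at 26.9, 20.4, 21.2, 23.4 and 24.02 without stress and 13.3, 13.5, 13.4, 18.05 and 11.99 CPM with stress and was the lower member (0.606-fold, log2 -0.72 ± 0.13, adjusted p = 0.00354). The count of higher demethylases was 3 without no-stress 1 or stress 1, 3 or 4 and 3 without both no-stress 1 and 5. Collagen-modifying enzymes had 7 higher and no lower of 22 tested members (median 0.19), a count that was 3 without both no-stress 1 and 5. P4HA2, a collagen prolyl hydroxylase, stood at 57.1, 63.8, 52.6, 51.6 and 64.3 without stress and 85.2, 78.8, 84.9, 79.97 and 77.8 CPM with stress (1.40-fold, log2 0.49 ± 0.10, adjusted p = 0.00794). LOX, which cross-links collagen, stood at 30.2, 58.9, 49.3, 60.7 and 74.2 without stress and 130.2, 160.2, 154, 96.2 and 117 CPM with stress (2.41-fold, log2 1.27 ± 0.27, adjusted p = 0.0125). The collagens themselves had no call among 25 tested genes.

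Lipid droplet genes had 3 higher and 1 lower of 22 tested members (median -0.14). HILPDA, a droplet protein that blocks the lipase ATGL, stood at 13.1, 16.8, 11.1, 26.4 and 20.005 without stress and 56.5, 42.9, 69.4, 63.1 and 67.1 CPM with stress. All stress tumours lay above the no-stress tumours (3.42-fold, log2 1.78 ± 0.27, adjusted p = 0.00287). PLIN2, a droplet coat protein, stood at 107, 115, 106, 166 and 128 without stress and 357, 209, 363, 332 and 286 CPM with stress (2.49-fold, log2 1.31 ± 0.26, adjusted p = 0.00935). The call of PLIN2 was lost without both no-stress 1 and 5. PNPLA3, a lipase-like droplet protein whose transcription follows sterol regulators, was 0.538-fold, adjusted p = 0.0373, a call lost when no-stress 1, 3 or 5 or stress 1, 2, 3 or 5 was left out. The higher count was 5 without no-stress 2 or stress 4. Among secreted factors of the VEGF, PDGF and angiopoietin list 3 of 15 tested members were higher (median 0.41). ANGPTL4, an inhibitor of lipoprotein lipase, stood at 22.8, 41.04, 28.2, 45.6 and 44.5 without stress and 166, 165, 181, 202 and 280.1 CPM with stress (5.46-fold, log2 2.45 ± 0.44, adjusted p = 0.00595). ADM, a vessel-dilating peptide, stood at 30.1, 40.5, 36.5, 38.8 and 81.7 without stress and 194, 178, 269, 178 and 256 CPM with stress (4.72-fold, log2 2.24 ± 0.36, adjusted p = 0.00391). No-stress 5 was its highest control. VEGFA, the principal angiogenic ligand, was 2.08-fold, adjusted p = 0.00355. HK2, the inducible hexokinase, was among the 8 largest increases and stood at 8.50, 16.8, 15.4, 25.7 and 26.9 without stress and 110.2, 57.03, 94.2, 71.7 and 80.3 CPM with stress (4.44-fold, log2 2.15 ± 0.34, adjusted p = 0.00391).

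Autophagy genes had 5 higher and no lower of 41 tested members (median 0.10), led by GABARAPL1, a membrane-bound ATG8 protein (1.37-fold, adjusted p = 0.00853). The count was 7 without stress 4 and 2 without both no-stress 1 and 5, where the call of GABARAPL1 was lost. The BCL2 family had 6 higher and 1 lower of 18 tested members (median 0.10). Its higher count was 7 without stress 4 and 3 without both no-stress 1 and 5. MCL1, an anti-apoptotic member, was 1.49-fold, adjusted p = 0.0133, and the higher members also included BNIP3L and BNIP3. The call of MCL1 was lost without both no-stress 1 and 5. BCL2L12 was the lower member (0.706-fold, adjusted p = 0.0450), a call lost when no-stress 1, 2, 3 or 4 or stress 1, 2, 3 or 4 was left out. Lysosome and V-ATPase genes had 8 higher and no lower of 54 tested members (median 0.03), a count of 2 without no-stress 1 or 3 or stress 1, 2 or 3, 5 without no-stress 5 or stress 5 and 1 without both no-stress 1 and 5. NPC1, the lysosomal cholesterol exporter, was 1.37-fold, adjusted p = 0.00535.

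**Figure D3:**
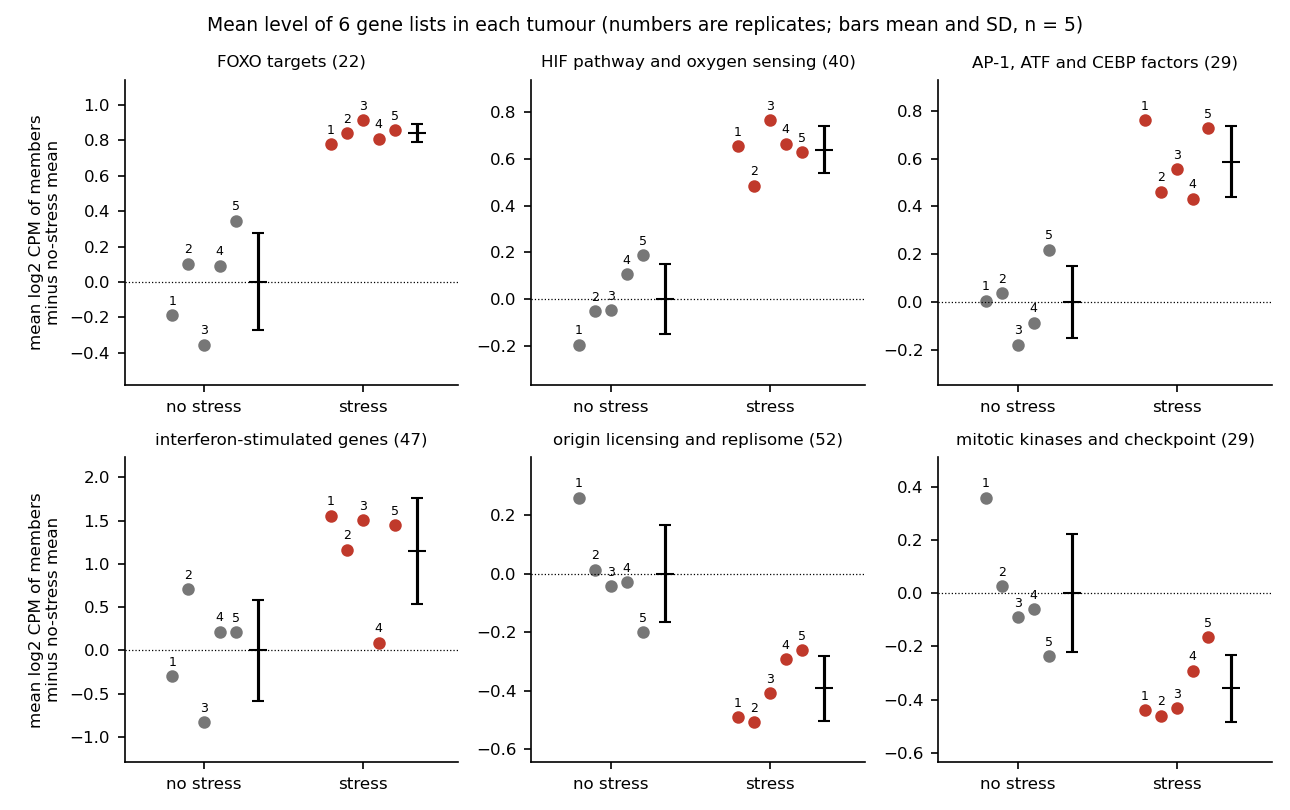
Mean log2 CPM of the tested members of 6 gene lists in each tumour, relative to the mean of the no-stress tumours; numbers are replicates and bars mean and SD (n = 5). The groups do not overlap for FOXO targets, the HIF pathway, AP-1 factors and origin licensing, and they overlap for interferon-stimulated genes, where stress 4 lies at 0.09, and for mitotic kinases.

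Calls among early response transcription factors were on the higher side, with 1 exception. The AP-1, ATF and CEBP families, leucine zipper factors that answer growth factors and stress, had 11 higher and 1 lower of 29 tested members (median 0.54). All 11 higher members lay above every no-stress tumour, as did 4.09% of all tested genes. A call itself favours such a gap. BACH1, a haem-regulated repressor that pairs with small MAF proteins, was 1.72-fold, adjusted p = 0.00354. MAFF, a small MAF protein, stood at 10.8, 12.3, 11.4, 8.52 and 14.6 without stress and 50.6, 31.4, 32.1, 30.8 and 40.3 CPM with stress (3.21-fold, log2 1.68 ± 0.29, adjusted p = 0.00498). FOS stood at 22.1, 21.9, 24.2, 20.6 and 42.3 without stress and 82.6, 60.1, 122, 101 and 164 CPM with stress. No-stress 5 was the highest of its group and still lay under every stress tumour (4.05-fold, log2 2.02 ± 0.36, adjusted p = 0.00625). ATF5, a factor of the mitochondrial stress response, was the lower member (0.803-fold, adjusted p = 0.0314), a call lost when no-stress 1, 2 or 3 or stress 2, 4 or 5 was left out. The KLF, SP and EGR family of zinc finger factors had 7 higher and no lower of 21 tested members (median 0.19). EGR1 stood at 10.7, 6.98, 7.12, 6.52 and 8.40 without stress and 47.1, 24.5, 35.9, 27.5 and 43.2 CPM with stress, with the stress tumours spread over a wide range above the controls (4.48-fold, log2 2.16 ± 0.31, adjusted p = 0.00245). KLF10, which transforming growth factor beta induces, stood at 121, 97.3, 94.98, 82.4 and 136 without stress and 199, 225, 199.97, 158 and 241 CPM with stress (1.93-fold, log2 0.95 ± 0.13, adjusted p = 0.00117).

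ERK feedback regulators, which are induced by and dampen this kinase pathway, had 5 higher and no lower of 16 tested members (median 0.44). Their count was 3 without no-stress 1 or 3 or stress 2 or 5 and 2 without both no-stress 1 and 5. DUSP6, the phosphatase for ERK, stood at 46.01, 43.7, 32.9, 36.5 and 56.7 without stress and 95.5, 101, 65.2, 59.1 and 75.8 CPM with stress (1.84-fold, log2 0.88 ± 0.16, adjusted p = 0.00522). DUSP1, a phosphatase for stress kinases that glucocorticoids also induce, stood at 40.8, 55.9, 60.1, 97.7 and 139.6 without stress and 218, 267, 307, 288 and 497 CPM with stress (4.004-fold, log2 2.00 ± 0.41, adjusted p = 0.0106). No-stress 5 was again the highest control of DUSP1. The EGF receptor family and its ligands had 4 higher and no lower of 14 tested members (median 0.44). That count was 6 without stress 4 and 2 without both no-stress 1 and 5. EGFR stood at 63.7, 75.9, 59.5, 53.01 and 71.5 without stress and 104, 92.7, 101, 107 and 97.3 CPM with stress, with the groups apart (1.55-fold, log2 0.63 ± 0.11, adjusted p = 0.00354). ERRFI1, a feedback inhibitor that binds the receptor's kinase domain, stood at 153, 269, 220.1, 335 and 293 without stress and 600.1, 787, 747, 603 and 716 CPM with stress (2.72-fold, log2 1.44 ± 0.25, adjusted p = 0.00498). EREG, a ligand of the receptor, was 1.52-fold, adjusted p = 0.0156, a call lost without both no-stress 1 and 5. The ligand BTC was 1.95-fold, adjusted p = 0.0397, a call lost when no-stress 1, 3 or 4 or stress 1, 2, 3 or 5 was left out.

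The transforming growth factor beta and BMP list had 9 higher and 1 lower of 49 tested members (median 0.19), a count of 4 without no-stress 1 or 3, 5 without stress 2 or 5 and 5 without both no-stress 1 and 5. GDF15, a stress-induced ligand that suppresses appetite through a brainstem receptor, stood at 6.32, 7.98, 9.29, 8.95 and 6.69 without stress and 24.4, 18.8, 21.2, 19.9 and 30.3 CPM with stress. It was high in all stress tumours (2.92-fold, log2 1.54 ± 0.26, adjusted p = 0.00391). INHA, the inhibin subunit, stood at 0.773, 0.732, 0.433, 0.645 and 0.892 without stress and 3.16, 2.23, 1.89, 1.28 and 2.96 CPM with stress, low in both groups but without overlap (3.30-fold, log2 1.72 ± 0.33, adjusted p = 0.00553). SMAD3, which carries the signal to the nucleus, was 1.42-fold, adjusted p = 0.00579. The co-receptor TGFBR3 was 0.704-fold, adjusted p = 0.0338, a call lost when no-stress 1, 2, 3 or 5 or stress 1, 2, 3 or 5 was left out.

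F2RL1, a receptor that proteases cleave to activate, stood at 60.8, 91.6, 82.7, 67.05 and 69.7 without stress and 195, 189, 161, 149 and 145 CPM with stress (2.26-fold, log2 1.17 ± 0.16, adjusted p = 0.00120). AKAP12, a scaffold for protein kinases A and C, was among the 8 largest increases and stood at 37.02, 66.98, 27.9, 45.3 and 92.96 without stress and 404, 187, 249.2, 254 and 224 CPM with stress. Its lowest stress tumour was number 2 (4.88-fold, log2 2.29 ± 0.38, adjusted p = 0.00467). Of the actin, myosin and tropomyosin list 6 of 58 tested members were higher and none was lower (median 0.15). The count was 3 without no-stress 1 and 2 without both no-stress 1 and 5. PDLIM1, an actin-linked adaptor, stood at 236, 237, 245, 239.9 and 243 without stress and 323, 334, 298, 283 and 309.9 CPM with stress (1.29-fold, log2 0.37 ± 0.07, adjusted p = 0.00391).

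The circadian clock genes moved in opposite directions. The core clock is a loop in which BMAL1 and CLOCK switch on their own repressors, among them NR1D1 and NR1D2, which in turn repress BMAL1. Of 19 tested clock genes 5 were higher and 1 was lower (median 0.29). Each of the 6 calls came without overlap, which a call itself favours. Of all tested genes 4.09% lay fully above and 4.7% fully below. The lower count was 2 without no-stress 5 or stress 3. NR1D1 stood at 12.2, 15.7, 10.6, 9.88 and 15.6 without stress and 45.02, 56.2, 43.5, 31.6 and 59.6 CPM with stress (chromosome 17, 40092787 to 40100725 of hg38). Every stress tumour lay well above the no-stress tumours (3.69-fold, log2 1.88 ± 0.21, adjusted p = 3.59e-04). NR1D2, its paralogue, stood at 39.1, 52.3, 35.9, 26.6 and 41.6 without stress and 77.02, 95.4, 60.9, 62.1 and 65.8 CPM with stress (1.85-fold, log2 0.89 ± 0.17, adjusted p = 0.00645). BMAL1 stood at 33.6, 33.1, 35.05, 27.3 and 31.5 without stress and 13.1, 16.4, 19.9, 14.7 and 19.7 CPM with stress (chromosome 11, 13276652 to 13387266 of hg38). It was the lower member, with the groups far apart (0.522-fold, log2 -0.94 ± 0.12, adjusted p = 5.36e-04). NFIL3, a repressor of clock output genes, stood at 18.9, 23.5, 16.7, 23.8 and 22.3 without stress and 40.1, 46.2, 45.99, 37.8 and 39.9 CPM with stress (1.997-fold, log2 1.00 ± 0.16, adjusted p = 0.00260). BHLHE40, a repressor of CLOCK and BMAL1 that hypoxia also induces, stood at 261, 277, 306, 185 and 350.3 without stress and 454, 544, 645, 436 and 716 CPM with stress (2.03-fold, log2 1.02 ± 0.17, adjusted p = 0.00306). PER3, a period repressor, was 2.15-fold, adjusted p = 0.0149, a call lost without both no-stress 1 and 5. The hour of collection is not given by the labels, and its part in the result was not tested.

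Nuclear receptors, ligand-controlled factors that include NR1D1 and NR1D2, had 6 higher and 4 lower of 35 tested members (median -0.03). The higher count was 3 without no-stress 1 or 2 or stress 1 and 2 without both no-stress 1 and 5, and the lower count was 2 without no-stress 1 or 3 or stress 1 or 2, 7 without stress 4 and 2 without both no-stress 1 and 5. VDR, the vitamin D receptor, was among the 8 largest decreases and stood at 16.998, 15.3, 13.9, 14.97 and 18.9 without stress and 7.60, 6.69, 11.4, 7.77 and 8.18 CPM with stress. All stress tumours lay below the no-stress tumours (0.521-fold, log2 -0.94 ± 0.15, adjusted p = 0.00239).

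As a group, interferon-stimulated genes stood above the no-stress range in all stress tumours but number 4. Type I interferons act through JAK kinases and a complex with IRF9 on the interferon-stimulated response element of these genes, many of which restrain viruses. Of 48 members 47 were tested, 29 were higher, none was lower, and all 47 differences were positive (median 1.03). No member separated the groups fully. The list's mean log2 level relative to no stress was -0.30, 0.71, -0.83, 0.21 and 0.21 without stress and 1.56, 1.17, 1.51, 0.09 and 1.45 with stress. Stress 4 thus lay inside the no-stress range, and no-stress 2 and 3 stood at the ends of theirs. Above the no-stress mean were 8, 45, 1, 38 and 42 of the 47 members in the no-stress tumours and 47, 46, 47, 33 and 47 in the stress tumours. The count of 29 calls was 6 without no-stress 1, 7 without stress 1, 11 without no-stress 3 or stress 3, 13 without stress 5, 16 without stress 2 and 2 without both no-stress 1 and 5. It was 8 with no filter on low counts, 17 in a fit of the 10 tumours alone and 42 by DESeq2's Wald test. A source of interferon was not measured, and the part of single tumours beyond these counts was not tested.

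**Figure D4:**
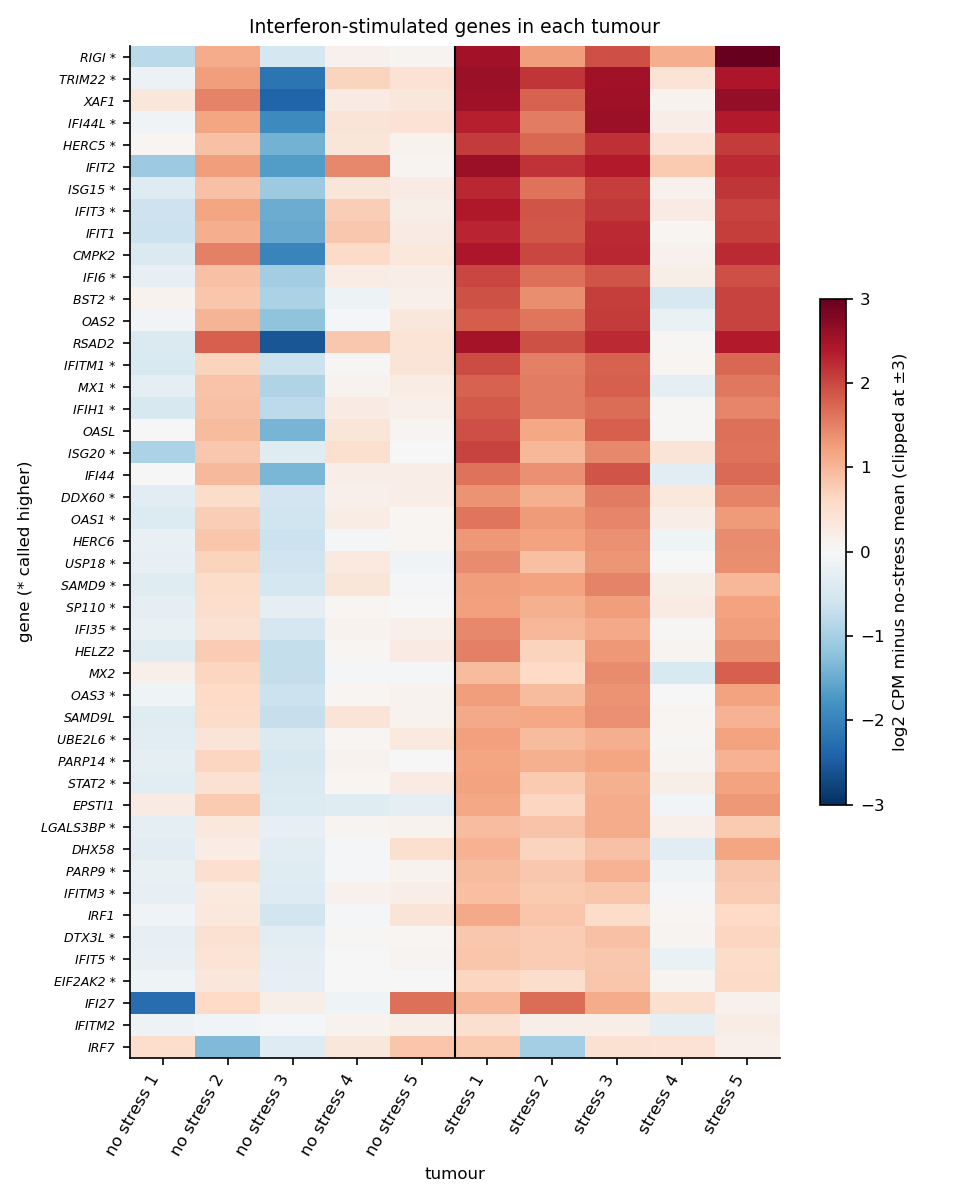
Log2 CPM of 46 of the 47 tested interferon-stimulated genes in each tumour minus the no-stress mean of the gene (colour, clipped at 3 in either direction); asterisks mark called genes. Stress tumours 1, 2, 3 and 5 are high across nearly the whole list, and stress 4 resembles no-stress 4 and 5.

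LGALS3BP, a secreted glycoprotein that binds galectins, stood at 555, 822, 564, 706 and 716 without stress and 1269, 1199, 1431, 741 and 1148 CPM with stress (chromosome 17, 78971238 to 78980109 of hg38). Stress 4 lay within the no-stress range (1.72-fold, log2 0.78 ± 0.16, adjusted p = 0.00668). Its upstream stretch is shown because it holds the interferon-stimulated response element, searched on both strands as a pair of GAAA blocks with any 2 bases between them and set in capitals (chr17:78979924-78980173, minus strand). RefSeq places the start inside the GENCODE gene given above, and most of the stretch lies within that gene.
LGALS3BP: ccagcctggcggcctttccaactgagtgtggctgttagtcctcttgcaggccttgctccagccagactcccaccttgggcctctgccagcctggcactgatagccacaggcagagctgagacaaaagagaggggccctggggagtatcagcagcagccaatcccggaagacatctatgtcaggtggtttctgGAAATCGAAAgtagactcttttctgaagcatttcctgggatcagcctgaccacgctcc
The element was found in 17 of 26 promoters of the list (65.4%), in 2.3% of all promoters, in 8.1% of those of higher genes and in 0.8% of those of lower genes. The element is poor in G and C bases, whose median share was 53.8% in promoters of the list and 65.2% in all. What base composition adds to the share was not tested. SP110, a nuclear body protein, stood at 37.1, 64.7, 36.7, 46.3 and 44.2 without stress and 106, 93.98, 106, 53.5 and 104 CPM with stress (2.02-fold, log2 1.02 ± 0.19, adjusted p = 0.00587). DDX60, a helicase that aids RNA sensing, stood at 34.1, 64.05, 29.3, 48.4 and 49.6 without stress and 111, 90.3, 129, 54.2 and 121 CPM with stress (2.24-fold, log2 1.16 ± 0.25, adjusted p = 0.0125). In both, stress 4 was the lowest of its group and lay inside the no-stress range. The call of DDX60 was lost without both no-stress 1 and 5.

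MHC class I and antigen loading genes had 3 higher and no lower of 12 tested members (median 0.50). B2M, the light chain of these molecules, stood at 338, 418, 269, 379 and 349 without stress and 803, 782, 789, 315 and 686 CPM with stress (1.93-fold, log2 0.95 ± 0.21, adjusted p = 0.0131). Stress 4 lay among the controls, and the list's count was 6 without no-stress 2, 8 without stress 4 and 1 without both no-stress 1 and 5. The call of B2M was lost without both no-stress 1 and 5. Reads of the near-identical HLA genes can be split between copies, so their single levels are uncertain. NF-kB subunits, inhibitors and feedback genes had 11 higher and 2 lower of 26 tested members (median 0.33), a higher count of 5 without stress 1, 6 without no-stress 3 or 4 or stress 5 and 7 without no-stress 1 or stress 3. BIRC3, a ubiquitin ligase of TNF receptor signalling and NF-kB target, stood at 91.1, 84.5, 52.8, 62.03 and 58.01 without stress and 168, 240.3, 130.3, 95.3 and 182 CPM with stress. All stress tumours lay above the no-stress tumours (2.34-fold, log2 1.23 ± 0.23, adjusted p = 0.00679). BIRC2, its neighbour and paralogue, was 1.33-fold, adjusted p = 0.00736, a call lost without both no-stress 1 and 5. TRAF3, which holds the non-canonical pathway in check, stood at 81.6, 75.95, 73.9, 69.3 and 78.2 without stress and 47.7, 45.5, 63.02, 62.9 and 45.3 CPM with stress and was lower (0.698-fold, log2 -0.52 ± 0.10, adjusted p = 0.00579). IKBKG, the regulatory subunit of the kinase that frees NF-kB, was 0.701-fold, adjusted p = 0.0213, a call lost when no-stress 1 or 3 or stress 1 was left out.

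Ligands that act on macrophages, the cells named in the title of the series, had 8 higher and no lower of 21 tested members (median 0.33). The count was 4 without no-stress 1 or stress 1 and 5 without no-stress 3 or stress 2 or 3. IL6 stood at 12.5, 10.6, 6.81, 14.2 and 18.96 without stress and 57.7, 36.1, 55.3, 34.4 and 37.3 CPM with stress, with no overlap (3.51-fold, log2 1.81 ± 0.29, adjusted p = 0.00354). MDK, the heparin-binding growth factor midkine, stood at 6.04, 13.5, 6.25, 7.31 and 8.48 without stress and 21.6, 20.4, 24.4, 14.3 and 21.7 CPM with stress (2.46-fold, log2 1.30 ± 0.23, adjusted p = 0.00391). SOCS, CISH and JAK-STAT genes had 6 higher and no lower of 23 tested members (median 0.12), a count of 2 without no-stress 1 or stress 3, 3 without stress 1 and 2 without both no-stress 1 and 5. SOCS3, which shuts off receptors of the IL6 type, stood at 67.7, 71.6, 47.6, 68.6 and 78.5 without stress and 159, 117, 103, 119 and 148 CPM with stress (1.94-fold, log2 0.95 ± 0.14, adjusted p = 0.00168). SERPING1, the C1 inhibitor of complement and an interferon-responsive gene, stood at 1.19, 3.59, 1.05, 4.94 and 3.27 without stress and 14.4, 14.2, 15.4, 4.33 and 13.3 CPM with stress (4.397-fold, log2 2.14 ± 0.39, adjusted p = 0.00521). Stress 4 was far below the other stress tumours there too.

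Calls among replication genes were all on the lower side. Origin licensing loads the MCM helicase onto DNA, and the replisome then copies it. All 52 members of this list were tested, 31 were lower, none was higher, and 47 differences were negative (median -0.41). The list's mean log2 level relative to no stress was 0.26, 0.01, -0.04, -0.03 and -0.20 without stress and -0.49, -0.51, -0.41, -0.29 and -0.26 with stress. The groups did not overlap, with no-stress 1 the highest. The count of 31 was 16 without no-stress 1 or stress 1, 18 without stress 3, 20 without no-stress 3 or stress 2 and 16 without both no-stress 1 and 5. MCM6, a subunit of the helicase, stood at 117, 85.3, 87.7, 87.7 and 68.9 without stress and 47.4, 54.2, 52.2, 63.9 and 56.2 CPM with stress (chromosome 2, 135839626 to 135876426 of hg38). No stress tumour reached the lowest no-stress tumour (0.613-fold, log2 -0.71 ± 0.11, adjusted p = 0.00252). Its upstream stretch is shown because it holds 2 matches to E2F motifs, set in capitals (chr2:135876444-135876693, minus strand).
MCM6: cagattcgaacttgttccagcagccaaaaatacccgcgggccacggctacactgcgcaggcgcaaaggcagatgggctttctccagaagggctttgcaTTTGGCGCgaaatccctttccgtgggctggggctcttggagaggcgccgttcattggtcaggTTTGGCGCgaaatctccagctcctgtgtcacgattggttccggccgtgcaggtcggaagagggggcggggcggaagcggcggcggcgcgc
The motifs searched on both strands were TTTGGCGC, TTTCCCGC and TTTGCCGC. At least 1 of them lay in 9 of 33 promoters of the list (27.3%), in 3.8% of all, in 7.8% of those of lower genes and in 2.7% of those of higher genes. FEN1, the flap endonuclease that trims Okazaki fragments, stood at 95.2, 67.9, 63.7, 60.1 and 57.6 without stress and 39.3, 43.1, 45.4, 42.8 and 43.3 CPM with stress (0.621-fold, log2 -0.69 ± 0.11, adjusted p = 0.00241). MCM10, which activates the helicase, was among the 8 largest decreases at 25.2, 16.2, 16.9, 20.5 and 11.4 without stress and 9.41, 7.39, 9.36, 10.2 and 10.02 CPM with stress (0.514-fold, log2 -0.96 ± 0.16, adjusted p = 0.00342).

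Calls among mitotic genes were mostly on the lower side. Of the mitotic kinases and checkpoint genes 29 were tested, 14 were lower and 2 were higher (median -0.47). The list's mean log2 level was 0.36, 0.03, -0.09, -0.06 and -0.24 without stress and -0.44, -0.46, -0.43, -0.29 and -0.17 with stress. No-stress 5 and stress 5 overlapped. The count of 14 was 8 without no-stress 1, 9 without stress 1 or 2 and 8 without both no-stress 1 and 5. PKMYT1, an inhibitory kinase of CDK1, stood at 28.7, 23.5, 22.04, 18.4 and 22.4 without stress and 12.1, 11.6, 10.5, 16.2 and 17.3 CPM with stress (0.589-fold, log2 -0.76 ± 0.14, adjusted p = 0.00419). BIRC5, survivin of the chromosomal passenger complex, stood at 98.97, 66.2, 71.9, 71.8 and 60.4 without stress and 41.9, 45.2, 46.4, 51.7 and 57.6 CPM with stress (0.658-fold, log2 -0.60 ± 0.12, adjusted p = 0.00649). The higher members were CHEK2, a DNA damage kinase (1.47-fold, adjusted p = 0.00528), and WEE1, the other inhibitory kinase of CDK1 (1.45-fold, adjusted p = 0.0134). CDCA8, borealin of the passenger complex, stood at 33.7, 25.9, 23.2, 24.1 and 23.2 without stress and 15.7, 16.9, 16.2, 19.3 and 18.3 CPM with stress (0.664-fold, log2 -0.59 ± 0.13, adjusted p = 0.00912). No-stress 1 stood above the rest. The stretch before its start is shown because it holds the cell cycle homology region TTTGAA, in capitals (chr1:37692266-37692515, plus strand). The RefSeq start lies inside the GENCODE gene, as it does for MT1X below.
CDCA8: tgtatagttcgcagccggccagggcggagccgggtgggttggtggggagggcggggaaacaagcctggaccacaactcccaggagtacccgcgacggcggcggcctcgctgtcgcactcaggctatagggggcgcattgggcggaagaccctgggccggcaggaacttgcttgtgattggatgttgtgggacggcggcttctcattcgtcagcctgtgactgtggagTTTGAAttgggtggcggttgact
TTTGAA on either strand lay in 8 of 13 promoters of the list (61.5%), in 8.0% of all, in 13.7% of those of lower genes and in 5.9% of those of higher genes. The CCAAT box, often found beside it, lay in 11 of the 13 (84.6%), in 36.1% of all, in 50.9% of those of lower genes and in 31.2% of those of higher genes.

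Further families of chromosome duplication and division held calls on the lower side. Kinetochore and centromere proteins had 13 lower and no higher of 41 tested members, 40 of them with a negative difference (median -0.40). The count was 4 without no-stress 1, 5 without stress 1, 7 without stress 2, 8 without no-stress 2 or stress 3 and 4 without both no-stress 1 and 5. ZWINT, which links the kinetochore to checkpoint proteins, stood at 67.6, 49.4, 47.8, 46.6 and 36.1 without stress and 28.99, 29.5, 32.5, 33.5 and 34.8 CPM with stress (0.643-fold, log2 -0.64 ± 0.13, adjusted p = 0.00679). Kinesins, motors on microtubules, had 12 lower and no higher of 33 (median -0.27), a count of 7 without no-stress 1 or stress 1. KIF22, a chromosome-bound kinesin, stood at 52.3, 43.8, 45.3, 37.9 and 36.6 without stress and 30.9, 29.4, 29.3, 30.2 and 32.8 CPM with stress (0.707-fold, log2 -0.50 ± 0.09, adjusted p = 0.00391). KIF20A, a kinesin of cytokinesis, stood at 52.3, 35.8, 37.8, 37.8 and 33.5 without stress and 24.1, 23.8, 24.6, 28.9 and 24.3 CPM with stress (0.638-fold, log2 -0.65 ± 0.13, adjusted p = 0.00579). Homologous recombination and Fanconi genes had 14 lower and no higher of 40 (median -0.28). That count was 2 without no-stress 1 or stress 1, 6 without stress 3, 7 without no-stress 3 or stress 2, 8 without no-stress 2, 9 without stress 5 and 2 without both no-stress 1 and 5. BRIP1, a Fanconi helicase, stood at 33.4, 33.7, 26.7, 23.4 and 24.02 without stress and 16.7, 20.2, 18.7, 16.8 and 20.7 CPM with stress (0.660-fold, log2 -0.60 ± 0.13, adjusted p = 0.00821). Condensin and cohesin had 10 lower and no higher of 24 (median -0.19), a count of 2 without no-stress 1 or stress 1, 4 without stress 2, 5 without stress 5, 6 without no-stress 3 and 3 without both no-stress 1 and 5. NCAPH, a condensin subunit, was 0.612-fold, adjusted p = 0.00794.

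Genes of chromatin copying and nucleotide supply were lower in part. DNA methylation and chromatin assembly genes had 9 lower and 1 higher of 21 tested members (median -0.24), a lower count of 5 without no-stress 1 or stress 1 or 2 and 3 without both no-stress 1 and 5. UHRF1, which brings the maintenance methyltransferase to new DNA, stood at 105, 87.7, 84.7, 76.2 and 69.8 without stress and 42.3, 39.5, 48.4, 65.1 and 59.97 CPM with stress (0.604-fold, log2 -0.73 ± 0.14, adjusted p = 0.00528). CHAF1B, a histone chaperone of the replication fork, was 0.688-fold, adjusted p = 0.00819. UHRF2, the paralogue of UHRF1, was the higher member at 47.6, 52.7, 52.3, 56.2 and 52.2 without stress and 67.8, 63.3, 60.7, 60.8 and 64.8 CPM with stress (1.22-fold, log2 0.28 ± 0.06, adjusted p = 0.0125). The call of UHRF2 was lost with no filter on low counts and without both no-stress 1 and 5. Nucleotide supply for DNA had 5 lower and 1 higher of 16 (median -0.18), a lower count of 3 without stress 1 or 2. DTYMK, the thymidylate kinase, was 0.692-fold, adjusted p = 0.00498, and RRM1, the large subunit of ribonucleotide reductase, was 0.702-fold, adjusted p = 0.00735. SAMHD1, which destroys DNA precursors and which interferon can induce, was the higher member (1.99-fold, adjusted p = 0.0465), a call lost when no-stress 1, 3, 4 or 5 or stress 1, 2, 3 or 5 was left out. Cyclins had 6 lower and 2 higher of 20 (median -0.08), a lower count of 2 without no-stress 1 or stress 1 and 3 without stress 3. CCNB1, a mitotic cyclin, stood at 121, 87.3, 90.3, 90.04 and 70.9 without stress and 54.3, 57.4, 62.8, 66.9 and 65.7 CPM with stress (0.669-fold, log2 -0.58 ± 0.12, adjusted p = 0.00631). Besides CCNG2 the higher cyclin was CCNL1, a splicing-linked cyclin (1.26-fold, adjusted p = 0.0416), a call lost when no-stress 1, 2, 3 or 4 or stress 1, 2, 3 or 5 was left out. E2F1, the factor that drives S phase genes, stood at 31.96, 27.5, 24.02, 21.8 and 24.2 without stress and 13.7, 13.9, 15.2, 17.3 and 19.7 CPM with stress (0.617-fold, log2 -0.70 ± 0.14, adjusted p = 0.00642), and its list of E2F, RB and DREAM genes had 5 lower and no higher of 18 (median -0.17), a count of 1 without no-stress 1, 2 or 3 or stress 1, 2 or 3, 2 without stress 5 and 1 without both no-stress 1 and 5. TUBB4B, a beta-tubulin, was 0.709-fold, adjusted p = 0.00225, and LMNB1, a nuclear lamin, was 0.665-fold, adjusted p = 0.00735.

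Biosynthetic genes were lower in part. Cholesterol synthesis and uptake had 7 lower and no higher of 27 tested members (median -0.36), with 25 differences negative. The count was 2 without no-stress 1 or 3 or stress 1, 3 or 5, 3 without no-stress 2, 11 without no-stress 5 and 2 without both no-stress 1 and 5, and it was 3 with no filter on low counts and 13 by DESeq2's Wald test. FDPS, which makes farnesyl diphosphate, stood at 84.01, 59.7, 79.3, 58.1 and 51.02 without stress and 47.6, 45.2, 33.3, 48.8 and 43.6 CPM with stress (0.658-fold, log2 -0.60 ± 0.13, adjusted p = 0.0111). INSIG2, given above and not a member of this list, was higher. Fatty acid synthesis and desaturation had 5 lower and no higher of 23 (median -0.09), a count of 2 without no-stress 1 or 3 or stress 1 or 3, 3 without stress 2 or 5 and 2 without both no-stress 1 and 5. ELOVL6, a fatty acid elongase, stood at 57.1, 38.8, 62.3, 54.1 and 41.5 without stress and 26.3, 37.2, 29.8, 37.04 and 21.8 CPM with stress (0.599-fold, log2 -0.74 ± 0.17, adjusted p = 0.0133). FASN, the fatty acid synthase, was 0.721-fold, adjusted p = 0.0223, a call lost when no-stress 1 or 3 or stress 1, 2 or 3 was left out. Purine and pyrimidine synthesis had 5 lower and 1 higher of 23 (median -0.17), a lower count of 2 without no-stress 1 or 3 or stress 1 or 3, 3 without stress 2 and 2 without both no-stress 1 and 5. UCK2, the uridine-cytidine kinase of the salvage pathway, stood at 85.1, 82.7, 80.4, 91.7 and 79.6 without stress and 54.7, 53.96, 63.1, 61.1 and 49.7 CPM with stress. Its groups lay clearly apart (0.674-fold, log2 -0.57 ± 0.08, adjusted p = 0.00128). UPP1, which breaks uridine down, was the higher member (1.65-fold, adjusted p = 0.0402), a call lost when no-stress 1, 3, 4 or 5 or stress 1 or 5 was left out.

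RNA and protein supply held lower calls with small differences. Splicing factors had 18 lower and 1 higher of 113 tested members (median -0.09), a lower count of 4 without no-stress 1, 5 without stress 1, 6 without stress 3, 7 without no-stress 3, 8 without stress 5, 10 without no-stress 2, 11 without stress 2 and 2 without both no-stress 1 and 5 and 9 with no filter. RBM12, an RNA-binding protein, stood at 106, 101, 96.2, 96.5 and 103 without stress and 72.7, 76.97, 82.4, 68.7 and 73.03 CPM with stress (0.745-fold, log2 -0.43 ± 0.07, adjusted p = 0.00239). RBM48 was the higher member (1.35-fold, adjusted p = 0.0392), a call lost when no-stress 1, 3 or 5 or stress 1, 2, 3 or 5 was left out. Ribosome biogenesis had 9 lower and no higher of 55 (median -0.19), a count of 5 without no-stress 1 or stress 1 and 5 without both no-stress 1 and 5. UBTF, the factor that opens ribosomal RNA genes, stood at 152, 155, 161, 149.6 and 150.4 without stress and 109, 104, 118, 125 and 113 CPM with stress (0.741-fold, log2 -0.43 ± 0.07, adjusted p = 0.00239). RNA polymerase and mediator subunits had 11 lower and no higher of 101 (median -0.10), a count of 1 without no-stress 1, 2 without no-stress 3, 3 without stress 1, 4 without stress 3, 6 without no-stress 2 or stress 2 or 5, 7 without no-stress 4 and 2 without both no-stress 1 and 5. Against these, the cytosolic ribosomal proteins had no call among 81 tested members, with a median of 0.08. Mitochondrial ribosomal proteins had 5 lower of 73 (6.85%, median -0.08). Complex I genes of the nucleus had 2 lower of 42 (4.76%, median -0.08), and the other respiratory complexes 1 lower of 50 (2%, median -0.05). These shares lay near or under the 5.22% of all tested genes. The mitochondrial ribosomal count was 2 without no-stress 1 or stress 2 or 3 and 1 without both no-stress 1 and 5. That of complex I was 0 without no-stress 1, 3 or 4 or stress 1 or 2, 1 without no-stress 2 or stress 3, 4 or 5 and 0 without both no-stress 1 and 5.

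Of the mitochondrial genome 13 genes that encode proteins were tested. All had negative differences, and 5 were lower (median -0.38). The count was 2 without no-stress 1, 3 without stress 1, 3 or 5, 8 without stress 2 and 2 without both no-stress 1 and 5. MT-ND3, a complex I subunit, stood at 1084, 1035, 921, 1266 and 928 without stress and 722, 823, 794, 654 and 607 CPM with stress (0.688-fold, log2 -0.54 ± 0.11, adjusted p = 0.00729). MT-ATP6, a subunit of ATP synthase, stood at 2320.04, 2481, 2282, 2395 and 2371 without stress and 1519.6, 2122, 1345, 1723 and 1340.2 CPM with stress (0.679-fold, log2 -0.56 ± 0.12, adjusted p = 0.00875). In both genes the groups did not overlap, and stress 2 was the highest of its group.

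Metal handling changed in named genes. Metallothioneins, small proteins that bind zinc and copper, had 4 higher of 5 tested members (median 0.95), and 2 without both no-stress 1 and 5. Their copies share sequence, so single levels are uncertain. MT1X stood at 12.8, 11.4, 11.5, 9.88 and 18.9 without stress and 66.03, 32.8, 39.99, 34.1 and 82.4 CPM with stress (chromosome 16, 56682424 to 56684196 of hg38). All stress tumours lay above the no-stress tumours (3.96-fold, log2 1.99 ± 0.33, adjusted p = 0.00421). Its upstream stretch is shown for its 4 matches to the metal response element core, TGCNCNC on either strand, set in capitals (chr16:56682220-56682469, plus strand).
MT1X: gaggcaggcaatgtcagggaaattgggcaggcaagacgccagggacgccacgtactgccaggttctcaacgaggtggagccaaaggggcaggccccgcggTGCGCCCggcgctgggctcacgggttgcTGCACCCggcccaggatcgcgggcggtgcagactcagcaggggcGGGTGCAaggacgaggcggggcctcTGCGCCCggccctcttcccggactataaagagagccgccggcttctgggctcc
That short core also lies in 56.9% of all promoters, in 57.3% of those of higher genes and in 59.4% of those of lower genes. MT2A stood at 220.3, 327, 204, 178 and 309.7 without stress and 755, 479, 386, 317 and 602 CPM with stress (2.05-fold, log2 1.03 ± 0.22, adjusted p = 0.0106). Its groups overlapped slightly. Iron and haem genes had 3 higher and 4 lower of 26 tested members (median -0.12), a higher count of 1 without no-stress 1 or 3 or stress 1, 2 or 3 and 1 without both no-stress 1 and 5 and a lower count of 1 without no-stress 1 or stress 1 or 5, 2 without no-stress 3 or 4 or stress 2 or 3 and 2 without both no-stress 1 and 5. FECH, which inserts iron into haem, stood at 61.4, 51.8, 62.6, 55.7 and 56.97 without stress and 35.8, 41.8, 42.1, 46.3 and 36.9 CPM with stress (0.703-fold, log2 -0.51 ± 0.08, adjusted p = 0.00245).

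Sphingolipid enzymes had 2 higher (6.90%) and 1 lower (3.45%) of 29 tested members (median -0.01), near the 5.23% and 5.22% of all tested genes. The higher count was 4 without no-stress 5 and 1 without both no-stress 1 and 5. The lower count was 3 without no-stress 4. CERK, ceramide kinase, stood at 58.6, 59.1, 60.6, 63.5 and 58.5 without stress and 42.1, 32.6, 38.04, 42.4 and 30.9 CPM with stress (chromosome 22, 46684411 to 46738261 of hg38). The no-stress tumours were close together, and all stress tumours lay below them (0.619-fold, log2 -0.69 ± 0.09, adjusted p = 7.95e-04). UGCG, which makes glucosylceramide, stood at 25.3, 31.1, 22.7, 24.5 and 37.9 without stress and 93.7, 82.8, 71.4, 48.6 and 48.9 CPM with stress (2.44-fold, log2 1.29 ± 0.20, adjusted p = 0.00245). Besides VDR, MCM10 and BMAL1, 5 genes made up the 8 largest decreases. CCDC190, a gene of little-known function, stood at 20.9, 40.9, 35.05, 45.5 and 16.1 without stress and 13.3, 14.3, 11.4, 8.72 and 17.1 CPM with stress. No-stress 5 lay among the stress tumours (0.409-fold, log2 -1.29 ± 0.29, adjusted p = 0.0155). NT5DC2, a nucleotidase-like protein, stood at 43.6, 32.2, 45.4, 45.6 and 34.1 without stress and 17.8, 19.9, 15.8, 29.5 and 14.6 CPM with stress (0.487-fold, log2 -1.04 ± 0.19, adjusted p = 0.00534). ABCG2, a drug efflux pump, stood at 24.5, 21.7, 26.01, 23.6 and 14.3 without stress and 9.94, 9.62, 8.69, 16.2 and 9.95 CPM with stress, with stress 4 apart from the other stress tumours (0.494-fold, log2 -1.02 ± 0.19, adjusted p = 0.00492). TNFRSF10D, a decoy receptor for the death ligand TRAIL, was 0.530-fold, adjusted p = 0.00478. DDC, which makes dopamine and serotonin, was 0.442-fold, adjusted p = 0.0455, a call lost when no-stress 1, 2, 3 or 4 or stress 1, 2, 3, 4 or 5 was left out.

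Several families showed no or few calls. No member was called among 16 S100 proteins (S100A6 1.19-fold, adjusted p = 0.302), 12 annexins, 25 collagens (COL18A1 1.11-fold, adjusted p = 0.531), 12 SOX and GATA factors, and 15 UDP-glucuronosyltransferases and sulfotransferases (median -0.31). DESeq2's Wald test called 2 annexins, 2 collagens and no member of the other 3 lists. Of 382 tested ZNF zinc finger genes 15 were higher and 9 lower, of 233 LINC RNAs 5 and 4, and of 462 antisense RNAs 17 and 5, shares below the 5.23% and 5.22% of all genes. The higher ZNF count was 4 without no-stress 1, 5 without stress 1, 6 without no-stress 3 and 2 without both no-stress 1 and 5, and the lower was 5 without no-stress 1 and 4 without both no-stress 1 and 5. The higher LINC count was 2 without no-stress 1, 3 without no-stress 3 or 5 or stress 1, 3 or 5, 9 without stress 4 and 2 without both no-stress 1 and 5, and the lower was 2 without no-stress 1 or stress 1, 2 or 5 and 2 without both no-stress 1 and 5. The higher antisense count was 6 without stress 1, 7 without no-stress 1, 9 without no-stress 3, 11 without stress 3 or 5 and 3 without both no-stress 1 and 5, and the lower was 0 without no-stress 1, 1 without stress 1, 2 or 3, 3 without no-stress 2 or 3 or stress 5 and 1 without both no-stress 1 and 5. Whether the counting used strand is not given, so reads of antisense genes and their partners cannot be told apart. STK11, which is mutated in A549, was 0.912-fold, adjusted p = 0.359. KEAP1, also mutated in the line, was 0.837-fold, adjusted p = 0.0330, a call lost when no-stress 1, 2 or 3 or stress 1, 2, 3 or 5 was left out. Calls were fewer at low levels: of the 3859 genes with the lowest levels 2.67% were higher and 0.855% lower, and of the 3859 with the highest levels 8.40% and 7.72%.

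**Figure D5:**
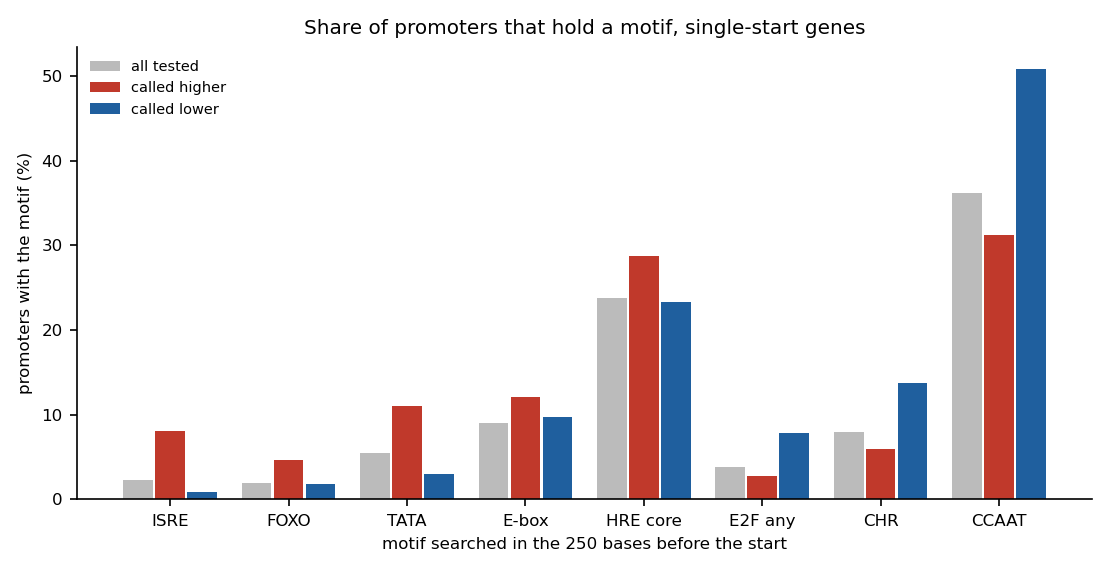
Share of promoters (250 bases before the start, 7218 genes with a single start; 372 of higher and 497 of lower genes) that hold each of 8 motifs on either strand. The interferon element, the FOXO motif and the TATA box (TATAAA) are more frequent among higher genes, and the E2F motifs, TTTGAA and CCAAT among lower genes.

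Promoter letters were also compared across all calls, as shares without a test. TATAAA lay in 11.02% of promoters of higher genes, in 3.0% of those of lower genes and in 5.4% of all, and the E-box CACGTG in 12.1%, 9.7% and 8.9%. The median share of G and C bases was 67.6% for higher genes, 65.2% for lower genes and 65.2% for all. Motifs rich in these bases occur more often in stretches rich in them.

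Against the post-stress tumours, whose mice were restrained after transplantation, the stress tumours differed in 6 genes (0.0389% of those tested): PPM1K, H2BC4, H2BC12 and MDK were higher and RAB26 and CERK lower. PPM1K, the phosphatase that activates the breakdown of branched-chain amino acids, stood at 2.67, 3.72, 2.29, 4.51 and 2.31 without stress and 7.38, 8.09, 10.97, 6.29 and 10.8 CPM with stress and at 2.71 ± 1.02 CPM (SD, n = 5) in post-stress tumours. Against post-stress its adjusted p was 0.0290, and against no stress the difference was 2.80-fold, log2 1.49 ± 0.27, adjusted p = 0.00412. CERK stood at 56.6 ± 5.17 CPM (SD, n = 5) in post-stress tumours (adjusted p = 0.0242 against stress), a mean slightly under the no-stress values given above. MDK stood at 7.19 ± 2.07 CPM (SD, n = 5) there (adjusted p = 0.0242). RAB26, a GTPase of secretory vesicles, stood at 11.9, 10.9, 14.1, 13.97 and 11.9 without stress and 8.96, 7.67, 7.47, 6.15 and 6.77 CPM with stress and at 12.8 ± 1.78 CPM (SD, n = 5) in post-stress tumours (adjusted p = 0.0290). H2BC4 and H2BC12 encode histone H2B, and of the 6 genes H2BC12 alone was not called against no stress (1.24-fold, adjusted p = 0.0809). Those comparisons share the stress tumours. The call of H2BC4 against no stress was lost without both no-stress 1 and 5. The count of 6 rested on single tumours: it was 0 without post-stress 2 or 3 or without stress 2, 3 or 5, 1 without post-stress 5, and 189 without stress 4.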

How the data were processed

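RNA of 15 A549 xenografts was measured, 5 in each of the groups no stress, stress and post-stress, and the titles gave each sample's group and number. The authors deposited 1 table of raw gene counts for 60649 human and 56941 mouse genes; all 15 of its columns were matched to samples, and 0 were left over. Per the submitters' processing notes, reads were trimmed with Trimmomatic 0.39, aligned with HISAT2 2.2.1 to hg38 and mm10 and counted with featureCounts 2.0.6 (DESeq2 and edgeR are listed too). Not given in the sources used here are the strand setting, the annotation release and whether both genomes were aligned together. Antisense genes, near-identical copies and conserved sequence are therefore uncertain.

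Library sizes and TMM scaling used human counts alone. filterByExpr of edgeR kept 15435 human genes with 99.8% of human counts. The edgeR quasi-likelihood test was fitted to all 15 libraries at once (edgeR 4.0.16, limma 3.58.1, R 4.3.3), with no covariate, so that all groups shared one estimate of spread (biological coefficient of variation 0.187). A gene was called at an adjusted p (Benjamini-Hochberg, over all tested genes) under 0.05. The SE is the log2 difference divided by the square root of F, and log2 CPM used a prior count of 2. The test was tried on simulated data before use. There it called 39.4% of 1.5-fold, 71.6% of 2-fold and 92.4% of 3-fold changes, with 3 false calls among 138. A gene without a call may thus hold a small change. As the labels do not say that tumours came from separate animals, p-values measure the spread between these tumours, which may be technical. Human totals were at least 13242819 counts a tumour in the 10 tumours compared, and counting error matters mainly for genes at a few CPM.

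The members and 143 gene lists were chosen with earlier results of these data known, and lists are described by counts and medians, with no test of a list. Genes were named by a rule: the 12 smallest p, the 8 largest increases and decreases among called genes of log2 CPM of at least 3, up to 3 called members with the smallest p in a list, the highest members of lists that did not move, 3 genes known to be altered in A549, and the genes of the printed promoters. HIF1A, VHL, MTOR, IRS2, IGF2BP1, IGF2BP2, PNPLA3, BCL2L12, ATF5, BTC, TGFBR3, PER3, IKBKG, WEE1, SAMHD1, CCNL1, UPP1, RBM48 and H2BC12 fall outside it and were chosen after their values were seen. Some genes that the rule takes are not reported here. Coordinates are those of GENCODE 29. Promoter sequences are RefSeq's on GRCh38.p14, and motifs were searched in the 250 bases before the start of 7218 tested protein-coding genes with a single start in that table. Alternatives were DESeq2 1.42.0, its size factors, limma-voom, other filters, the 2 groups alone, the mouse share as covariate, a replicate block and leaving out tumours.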

Additional observations from a re-analysis of the deposited data

Results flagged for a closer look

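Within groups of 5 tumours, 1 tumour stood apart from the other 4 of its group for 15 values of the 294 groups examined (141 genes and 6 list means, in both groups), by Dixon's test of the gap at 95%. Chance alone gives such a gap in about 1 in 20 groups, so that a count of this size has no weight in itself. Stress 4 was the tumour in 8 of them. It was lowest for SP110 (53.5 CPM, others 94.0 to 106), B2M (315 CPM, others 686 to 803), SERPING1 (4.33 CPM, others 13.3 to 15.4), BTC (6.02 CPM, others 10.3 to 11.9) and the mean log2 level of the interferon-stimulated genes relative to no stress (0.0859, others 1.17 to 1.56). It was highest for ABCG2 (16.2 CPM, others 8.69 to 9.95), RIOX1 (18.05 CPM, others 12.0 to 13.5) and KIF20A (28.9 CPM, others 23.8 to 24.6). No-stress 1 was highest for FEN1 (95.2 CPM, others 57.6 to 67.9), CDCA8 (33.7 CPM, others 23.2 to 25.9), KIF20A (52.3 CPM, others 33.5 to 37.8), DTYMK (74.7 CPM, others 51.0 to 56.8) and LMNB1 (94.8 CPM, others 64.9 to 72.8). No-stress 5 was highest for ADM (81.7 CPM, others 30.1 to 40.5) and FOS (42.3 CPM, others 20.6 to 24.2). What set these tumours apart was not tested.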

How the results depend on the processing

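The count of 1613 changed genes (807 higher, 806 lower) stayed within 1.5 times of itself with DESeq2's Wald test (2169), DESeq2's size factors (1585), limma-voom (1617), the mouse share as covariate (1469), no filter (1200), a filter of 1 CPM in 5 libraries (1605) and a fit of the 10 tumours alone (1504). Leaving out 1 tumour gave 661 to 1834 changed, 376 to 969 higher and 285 to 865 lower genes. Without both no-stress 1 and 5, the tumours with the largest mouse shares, there were 546 changed, 295 higher and 251 lower genes. Equal replicate numbers did not pair the tumours (correlations of same-numbered deviations -0.19, 0.08, -0.08, -0.02 and 0.12), and the fit with a replicate block called 990 genes, 444 of them lower, with 5 interferon-stimulated genes in place of 29. The 6 genes that differed between stress and post-stress were 207 by DESeq2's Wald test, 36 with no filter, 1 in a fit of those groups alone, 0 with the mouse share as covariate, 0 with the replicate block and 0 to 189 when 1 tumour was left out. No named gene changed direction under any of the 19 alternatives. Of 135 named genes called, 103 kept their call in all of them; 30 lost it without both no-stress 1 and 5, 14 with the replicate block and up to 16 without 1 tumour. Calls were fewer among genes of low level, for a reason that was not tested: of the 3859 genes with the lowest levels 2.67% were called higher and 0.855% lower.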
